A study of Mus musculus with 12 samples.

Results

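The livers compared here are those of obese ob/ob mice kept on a diet high in fat and of lean C57BL/6 mice fasted for 24 h, all of which had received the virus labelled AAV8-vector. The members are the 6 RNA-seq libraries that the titles place in these groups, 3 of each, out of 12 in the series. The other 6 received fumarate hydratase (FH) through the same virus, an adeno-associated virus that the design text calls liver-specific, and enter only the test of the difference between the contrasts and 1 alternative fit. The series asks how FH acts on fatty liver, and the vector libraries are its controls. The C57BL/6 mice were injected in the tail vein at 6 to 8 weeks of age and fasted 1 month later. The ob/ob mice were injected at the same age and then fed a high-fat diet (HFD) for 1 month, and whether they were fed or fasted at collection is not stated. Genotype, diet and fasting therefore differ together, and their parts in any difference below cannot be told apart. No fed lean liver is among the 6 libraries, so a gene higher in ob/ob livers may equally be described as lower in fasted ones.

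An ob/ob mouse lacks functional leptin, the hormone of fat tissue that restrains feeding, and becomes obese with high insulin and a fatty liver. After feeding, insulin and glucose switch on the hepatic genes that turn sugar into fatty acids through the transcription factors SREBP-1c and ChREBP, and a lack of sterol in the endoplasmic reticulum activates SREBP-2 and the genes of cholesterol synthesis. In fasting, glucagon, glucocorticoids and fatty acids acting on PPARα instead switch on amino acid breakdown, glucose production, fatty acid oxidation and ketone formation.

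Depth was 12231828 to 14884323 counts per fasted and 12573267 to 14496559 per ob/ob library. Levels are given as counts per 1000000 (CPM) on library sizes scaled by the trimmed mean of M values (TMM), so a level is relative to the other genes of its library. The labels give both liver tissue and primary hepatocytes as the source. Hepatocyte markers summed to 77400 to 110000 CPM in the fasted and 73700 to 94400 CPM in the ob/ob libraries, and markers of Kupffer cells and macrophages (652 to 887 and 519 to 770 CPM) and sinusoidal endothelium (672 to 831 and 480 to 613 CPM) were present in all 6, so RNA of other liver cells was measured too. In such bulk RNA, fewer cells of a type and less RNA per cell cannot be told apart. Y-linked genes summed to 276 to 365 CPM, and Xist had 2 to 10 counts, in all 6 libraries.

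Replicate 2 of the ob/ob group stood apart from replicates 1 and 3. The log2 CPM of replicates 1 and 3 correlated at 0.981 across genes, those of replicate 2 with them at 0.950 and 0.942, and those of the fasted pairs at 0.969 to 0.979. With fasted replicates 1 to 3, ob/ob replicate 2 correlated at 0.950, 0.937 and 0.945, about as closely as with its own group. Ob/ob replicates 1 and 3 correlated with the fasted libraries at 0.921 to 0.943. On the first principal component (52.3% of the variance) the fasted libraries lay between -48.6 and -31.6, ob/ob replicates 1 and 3 at 51.9 and 60.3, and replicate 2 at 13.6. It was alone at -61.5 on the second component (21.5%). Counts of called genes are therefore also given without that library where they change, over the genes tested in that fit. The labels do not say whether each library is from its own animal, and the p-values therefore measure only how far these libraries spread, which may be technical.

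Of 14287 genes tested, 1244 (8.71%) differed at an edgeR adjusted p under 0.05. Of these, 698 (4.89%) were higher and 546 (3.82%) lower in ob/ob livers, and 455 (3.18%) and 318 (2.23%) also differed at least 2-fold. Without ob/ob replicate 2, 2510 genes differed, 1460 (9.98%) higher and 1050 (7.17%) lower, and 1222 of the 1244 were among them. Counts of list members called with and without that library are to be read beside these shares of all genes. The number of calls rested on single libraries, with 223 in all without fasted replicate 3, 342 without fasted replicate 2, 499 without ob/ob replicate 1, 666 without ob/ob replicate 3 and 795 without fasted replicate 1. Of the 1244, these fits kept 222, 339, 480, 609 and 684, in the same order. When 1 of these libraries was left out, at least 1242 of the 1244 genes still pointed the same way. This agreement was nearly fixed beforehand, since the genes were called on libraries that each of these fits reuses. Scaling to library totals instead of TMM put the median of all genes at 0.20 on the log2 scale, against 0.01 here, and made 80.4% of the calls higher, against 56.1% here, so each change below is relative to the TMM scaling. The scatter of fold change against level shows the spread of these calls over the range of expression.

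**Figure D1:**
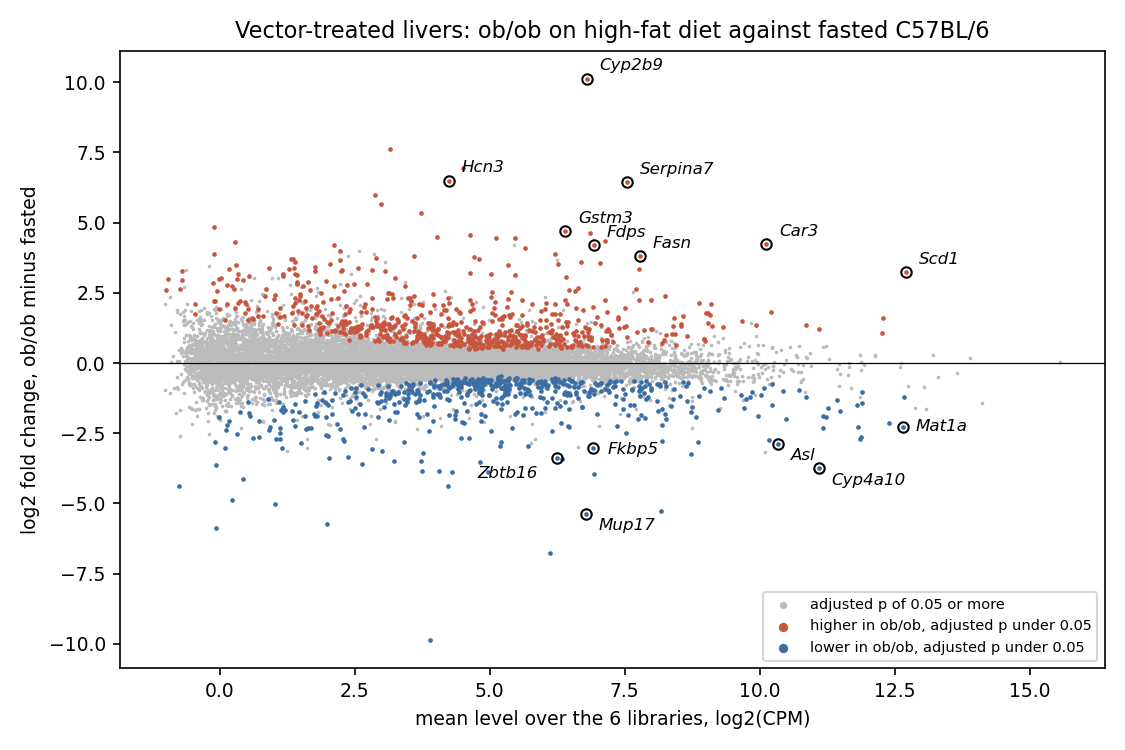
Each point is 1 of the 14287 genes tested, with its mean level over the 6 libraries on the x axis as log2(CPM) and the log2 fold change of ob/ob minus fasted livers on the y axis. Red and blue points are the 698 genes called higher and the 546 called lower, grey points did not pass, and ringed genes are named in the text, such as Hcn3 at 6.49 and Mup17 at -5.37.

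Genes of fatty acid synthesis were higher in the ob/ob livers. Fasn, which encodes fatty acid synthase, stood at 25.9, 30.0 and 32.4 CPM in fasted replicates 1 to 3 and at 383, 276 and 573 CPM in ob/ob replicates 1 to 3. The groups lay far apart, a 14.0-fold difference (log2 fold change 3.80, SE 0.29, adjusted p = 0.000808). Srebf1, which encodes SREBP-1, stood at 10.3, 12.6 and 13.7 CPM against 194, 99.5 and 129 CPM (log2 fold change 3.53, SE 0.27, adjusted p = 0.000808). Scd1, the main desaturase of liver, was at 1426, 1142 and 1290 CPM against 11657, 7180 and 17628 CPM (log2 fold change 3.24, SE 0.37, adjusted p = 0.00224). In all 3 genes the groups did not overlap, and ob/ob replicate 2 was the lowest of its group yet above every fasted library. Acly and Acaca, which make cytosolic acetyl-CoA and malonyl-CoA, rose by 1.97 (SE 0.17) and 2.24 (SE 0.27), and Thrsp, a nuclear protein tied to lipogenesis, by 4.35 (SE 0.50, adjusted p = 0.00224). These 6 genes kept their calls whichever single library was left out.

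Of the 22 tested genes of the fatty acid synthesis list 15 rose and 0 fell, where 4.89% of all genes rose. Their median log2 difference was 1.55, against 0.01 over all genes. Without ob/ob replicate 2, 18 rose and 1 fell, and the number that rose was 8 without fasted replicate 2 and 6 without fasted replicate 3. Mlxipl, which encodes ChREBP, did not pass (0.52, adjusted p = 0.327). Its highest level was in ob/ob replicate 2, at 578 CPM against 298 and 302 in replicates 1 and 3 and 265, 204 and 351 in the fasted libraries. Pnpla3, a lipid droplet protein that follows SREBP-1c, passed only without ob/ob replicate 2 (3.64, adjusted p = 0.00247, against 3.15, adjusted p = 0.0697 with it).

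Some genes of glucose use were higher too. Pklr, the liver pyruvate kinase, was at 24.7, 18.7 and 18.9 CPM in the fasted libraries and at 285, 124 and 323 CPM in the ob/ob libraries (log2 fold change 3.55, SE 0.35, adjusted p = 0.00133). Replicate 2 was again the lowest ob/ob library and lay above the fasted ones, and the call held whichever single library was left out. Of the 24 glycolysis and fructose entry genes 6 rose and 1 fell (median 0.31), against 11 and 1 without ob/ob replicate 2 and 1 and 0 without fasted replicate 3. The number that rose was 2 without fasted replicate 2 and 3 without ob/ob replicate 1. Among 13 glycogen genes 3 rose, Pygl and Gbe1 among them, and 1 (Phkg2) fell, or 5 rose and 2 fell without ob/ob replicate 2, and the call of Phkg2 was lost without any other single library. Gbe1, the branching enzyme, stood at 53.9, 47.8 and 46.2 against 266, 138 and 290 CPM and rose by 2.23 (SE 0.27, adjusted p = 0.00303). Pygl, the liver glycogen phosphorylase, stood at 219, 199 and 199 CPM in the fasted and at 536, 537 and 546 CPM in the ob/ob livers (log2 fold change 1.39, SE 0.16, adjusted p = 0.00224). Gbe1, which builds glycogen, and Pygl, which breaks it down, were thus both higher, and both calls held whichever single library was left out.

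**Figure D2:**
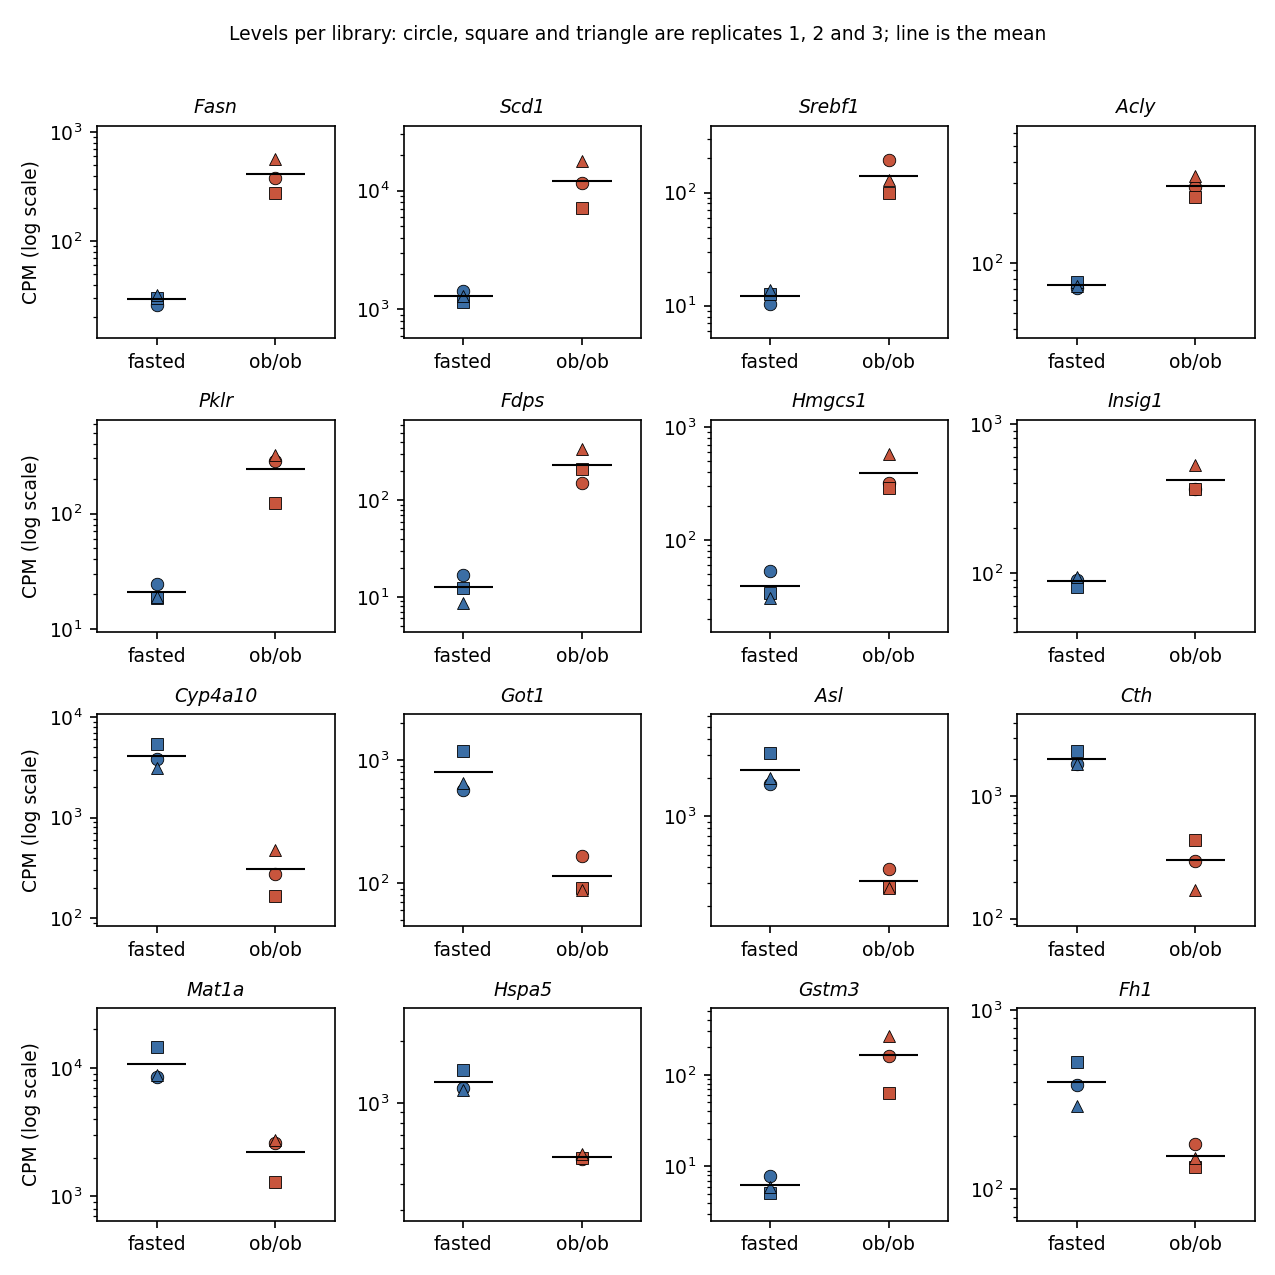
Levels of 16 genes in each library as CPM on a log axis, with fasted libraries on the left (blue) and ob/ob libraries on the right (red) of each panel, circles, squares and triangles for replicates 1, 2 and 3 and a line for the mean of 3. In each panel the groups do not overlap, as for Fasn at 29.4 ± 3.30 against 411 ± 151 CPM (SD, n = 3) and Asl at 2291 ± 727 against 313 ± 64.2 CPM.

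Cholesterol synthesis was the list with the largest share of higher genes. Of its 25 genes 22 rose and 0 fell, with a median of 2.09, and 23 rose without ob/ob replicate 2 and 12 without fasted replicate 3. In 22 of the 25 every ob/ob library lay above every fasted one, a separation found in this direction in 16% of all genes. The promoters of Insig1 and Hmgcs1 are shown because both genes belong to this list and hold 1 of the motifs searched for within 250 bases before to 50 bases after the start. Insig1, whose product retains the SREBP proteins in the endoplasmic reticulum, is the one called gene of the fixed panel in this list with a motif, and Hmgcs1, which makes HMG-CoA from acetyl-CoA, was chosen after its values were seen. Capitals mark an E-box (CACGTG), the site SREBP-1 shares with other basic helix-loop-helix factors, in Insig1 and a sterol element (TCACNCCAC) in Hmgcs1, and both sequences are RefSeq's on GRCm38.p6, plus strand, 5′ to 3′, at chr5:28071162-28071461 and chr13:119690101-119690400.
Insig1: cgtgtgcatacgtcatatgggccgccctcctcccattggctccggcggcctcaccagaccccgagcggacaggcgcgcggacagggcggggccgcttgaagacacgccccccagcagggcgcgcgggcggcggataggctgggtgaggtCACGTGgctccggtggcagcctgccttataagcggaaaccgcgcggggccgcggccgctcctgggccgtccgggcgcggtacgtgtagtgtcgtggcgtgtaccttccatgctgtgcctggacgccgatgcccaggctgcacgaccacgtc
Hmgcs1: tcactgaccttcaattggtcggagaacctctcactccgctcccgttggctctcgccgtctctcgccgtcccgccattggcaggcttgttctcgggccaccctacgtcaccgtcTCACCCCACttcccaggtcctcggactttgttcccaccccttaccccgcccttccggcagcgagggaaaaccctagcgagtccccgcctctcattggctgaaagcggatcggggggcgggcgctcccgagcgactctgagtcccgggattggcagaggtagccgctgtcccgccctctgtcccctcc
On both strands, the E-box occurs in 7.15% and the sterol element in 1.24% of 32851 mouse promoters of this length, and in 4 and 1 of the 17 genes of the list with a promoter sequence. Of the 29 called genes of the panel and of the largest rises and falls that have a promoter sequence, 3 held the E-box and 0 the sterol element. The motifs shown begin 101 and 137 bases before the start, and a match is a description of the letters alone.

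Insig1 itself stood at 90.2, 80.0 and 94.4 CPM in the fasted and 366, 365 and 530 CPM in the ob/ob livers, with ob/ob replicate 2 level with replicate 1 (log2 fold change 2.25, SE 0.20, adjusted p = 0.00115). Hmgcs1 stood at 53.1, 33.7 and 30.2 against 319, 289 and 581 CPM (log2 fold change 3.35, SE 0.34, adjusted p = 0.00133). In both genes every ob/ob library lay far above the fasted ones. Along the pathway, Idi1 (by 3.87), Fdps (by 4.20), Fdft1 (by 1.76), Sqle (by 3.19), Cyp51 (by 3.07), Msmo1 (by 2.68), Nsdhl (by 3.50) and Sc5d (by 2.09) rose, which encode enzymes from isoprenoid assembly through squalene to the late sterol steps. Stard4, a carrier of cholesterol between membranes, rose by 2.57. All of these kept their calls when any single library was left out. Ob/ob replicate 2 lay with the other ob/ob libraries in these genes. Of the 23 genes called without it, it lay above the fasted range in 22, at a median of 92.7% of the log2 difference shown by replicates 1 and 3.

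**Figure D3:**
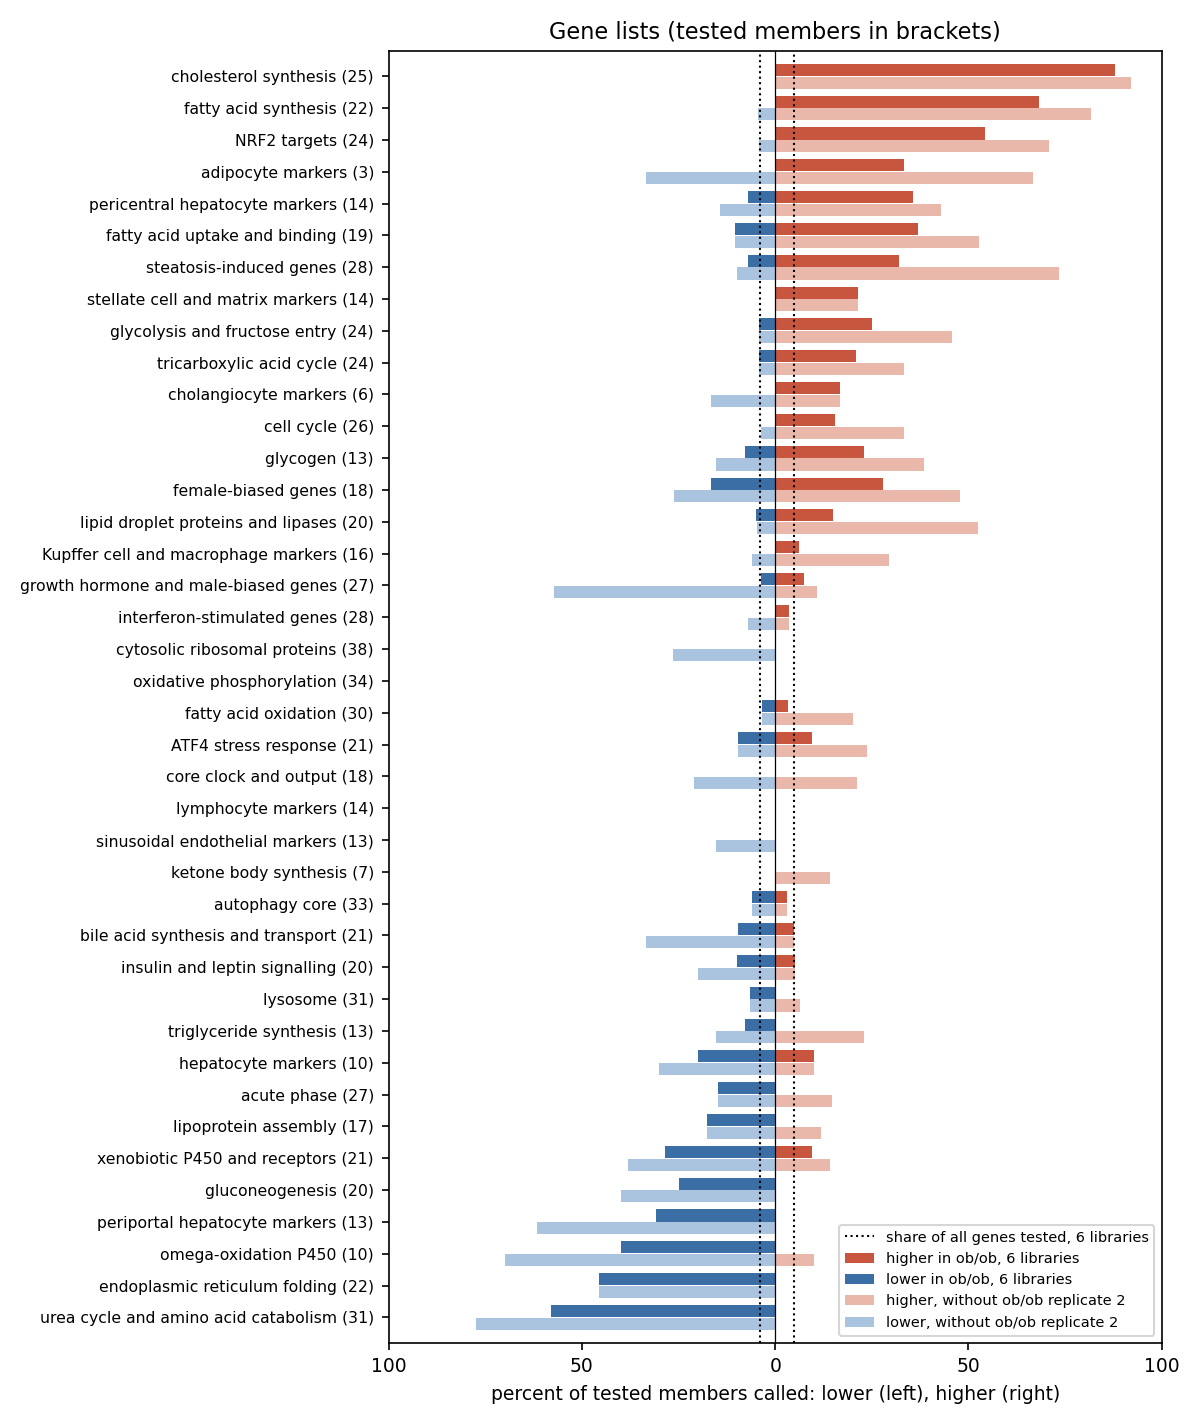
Bars give the percent of each list's tested members (number in brackets) called higher (right, red) or lower (left, blue) in ob/ob livers, from all 6 libraries (dark) and without ob/ob replicate 2 (pale), and dotted lines mark the 4.89% and 3.82% of all genes. Cholesterol synthesis reaches 22 of 25 genes to the right and the urea cycle and amino acid list 18 of 31 to the left, while the steatosis-induced list goes from 9 to 22 genes higher when replicate 2 is left out. The dotted lines hold for the dark bars only. Without replicate 2, 9.98% of all genes were called higher and 7.17% lower.

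Genes of amino acid breakdown and the urea cycle were lower in the ob/ob livers, or higher in the fasted ones. Asl, the lyase that splits argininosuccinate into arginine and fumarate, stood at 1784, 3124 and 1965 CPM in the fasted and at 387, 277 and 275 CPM in the ob/ob libraries, a 7.31-fold difference (log2 fold change -2.87, SE 0.29, adjusted p = 0.00133). Got1, the cytosolic aspartate aminotransferase, stood at 573, 1192 and 657 against 166, 91.1 and 88.5 CPM (log2 fold change -2.81, SE 0.36, adjusted p = 0.00365). Cth, which cleaves cystathionine to cysteine, was at 1833, 2342 and 1835 against 293, 442 and 172 CPM (log2 fold change -2.73, SE 0.34, adjusted p = 0.00343). No library of one group reached the other in these genes. Mat1a, which makes S-adenosylmethionine in hepatocytes, fell by 2.27 (SE 0.37), Oat, which breaks down ornithine, by 2.00 (SE 0.22), Arg1, the arginase of the urea cycle, by 1.72 (SE 0.24), Tdo2, which opens the tryptophan ring, by 1.51 (SE 0.25), Aass, of lysine breakdown, by 1.92 (SE 0.32), and Hgd, of tyrosine breakdown, by 1.14 (SE 0.19) on the log2 scale. These 9 genes kept their calls without any single library.

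Of 31 genes of the urea cycle and amino acid list 18 fell and 0 rose, where 3.82% of all genes fell. The median was -1.42, and in 25 of the 31 every ob/ob library lay below every fasted one, against 14.3% of all genes. Without ob/ob replicate 2, 24 fell, and without fasted replicate 3, 9 fell. The 24 genes called without replicate 2 all lay below the fasted range in that library as well, at a median of 84.5% of the log2 difference. Cps1, which makes carbamoyl phosphate for the cycle, fell by 2.26 (adjusted p = 0.0153) and no longer passed without fasted replicate 2 (-1.97, adjusted p = 0.0681), fasted replicate 3 (-2.37, adjusted p = 0.0707) or ob/ob replicate 1 (-2.15, adjusted p = 0.0707). Tat, the tyrosine aminotransferase that glucocorticoids induce, stood at 2207, 5613 and 3735 against 839, 982 and 510 CPM (-2.31, adjusted p = 0.0098), a call lost without fasted replicate 3 (-2.35, adjusted p = 0.0592). Otc, the next enzyme of the cycle after Cps1, did not pass (-0.11, adjusted p = 0.806). Asns, which makes asparagine and is a target of ATF4, fell by 2.79 (adjusted p = 0.011) and lost its call without fasted replicate 3 (-2.67, adjusted p = 0.0734). The ATF4 list as a whole had 2 of 21 genes higher (Atf3 and Psph) and 2 lower (Asns and Ddit4), against 4.89% and 3.82% of all genes. There were 5 higher without ob/ob replicate 2, 1 without ob/ob replicate 1 and 0 without ob/ob replicate 3 or any 1 fasted library, and the lower ones were 1 without fasted replicate 2 or ob/ob replicate 1 and 0 without fasted replicate 3.

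Some genes of glucose production were lower too. Of 20 gluconeogenesis genes 5 fell (Got1, Slc37a4, Tat, Pck1 and Gpt) and 0 rose, where 3.82% of all genes fell, with a median of -0.55. The number that fell was 8 without ob/ob replicate 2, 3 without fasted replicate 2 and 2 without fasted replicate 3. Slc37a4, which carries glucose 6-phosphate into the endoplasmic reticulum, stood at 204, 288 and 210 against 105, 64.1 and 86.8 CPM (log2 fold change -1.46, SE 0.23, adjusted p = 0.00768). Pck1, the carboxykinase that makes phosphoenolpyruvate, stood at 3893, 4380 and 3551 against 1928, 1397 and 1400 CPM (log2 fold change -1.32, SE 0.23, adjusted p = 0.0121). Its groups did not overlap, yet the call was lost without fasted replicate 2 (-1.25, adjusted p = 0.0521), fasted replicate 3 (-1.41, adjusted p = 0.0539) or ob/ob replicate 3 (-1.24, adjusted p = 0.0501). G6pc, the glucose 6-phosphatase, passed only without ob/ob replicate 2 (-0.89, adjusted p = 0.0201, against -0.58, adjusted p = 0.227 with it). Ppargc1a, a coactivator of the fasting programme, did not pass with or without that library (-1.02, adjusted p = 0.0862 and -0.81, adjusted p = 0.0765).

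Insulin and leptin signalling had 2 of 20 genes lower (Igfbp1 and Lepr) and 1 higher (Sesn3), against 3.82% and 4.89% of all genes. The number lower was 4 without ob/ob replicate 2, 1 without fasted replicate 1 and 0 without fasted replicate 2 or ob/ob replicate 1. The call of Sesn3 was lost without fasted replicate 3 or ob/ob replicate 1. Igfbp1, a secreted binding protein that insulin represses, stood at 362, 896 and 264 CPM in the fasted and 46.3, 53.7 and 124 CPM in the ob/ob livers (log2 fold change -2.77, SE 0.53, adjusted p = 0.0155), and the call was lost without fasted replicate 2 (-2.07, adjusted p = 0.0542) or ob/ob replicate 1 (-2.51, adjusted p = 0.0592). Lepr, the leptin receptor, stood at 38.3, 57 and 13.6 against 8.49, 5.10 and 11.5 CPM (-2.12, adjusted p = 0.0294). The lowest fasted library was close to the highest ob/ob one, and the call was lost without fasted replicate 1 (-2.08, adjusted p = 0.0868), fasted replicate 2 (-1.64, adjusted p = 0.12) or ob/ob replicate 1 (-2.13, adjusted p = 0.0931). Irs2, a relay of the insulin receptor, passed only without ob/ob replicate 2 (-1.31, adjusted p = 0.000645, against -0.85, adjusted p = 0.113).

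Genes of omega-oxidation, which starts at the far end of a fatty acid, were lower in the ob/ob livers. Few genes of the fatty acid oxidation list passed the test. Cyp4a10, a P450 that hydroxylates the last carbon of fatty acids and is a target of PPARα, stood at 3808, 5347 and 3089 CPM in the fasted and 277, 165 and 475 CPM in the ob/ob libraries, a 13.3-fold difference (log2 fold change -3.74, SE 0.42, adjusted p = 0.00224). Cyp4a31 fell by 2.32 (SE 0.33), and Cyp4a14 by 2.72 (adjusted p = 0.0319), the latter a call lost without fasted replicate 1 (-2.63, adjusted p = 0.0885), fasted replicate 2 (-2.58, adjusted p = 0.112), fasted replicate 3 (-2.95, adjusted p = 0.0936) or ob/ob replicate 1 (-2.83, adjusted p = 0.0958). The Cyp4a genes are close copies, so reads may be split between them and each value is uncertain. Of the 10 genes of omega-oxidation 4 fell (Cyp4a10, Cyp4a31, Cyp4a14 and Cyp4f15) and 0 rose, or 7 and 1 without ob/ob replicate 2, while 2 fell without any 1 fasted library or ob/ob replicate 1. Acot1, a cytosolic thioesterase that fasting induces, stood at 237, 104 and 97.6 against 29.4, 25.5 and 35.4 CPM (log2 fold change -2.28, SE 0.34, adjusted p = 0.00668). Angptl4, a secreted inhibitor of lipoprotein lipase and PPARα target, stood at 214, 250 and 204 against 84.5, 94.6 and 120 CPM (log2 fold change -1.16, SE 0.18, adjusted p = 0.00797). Both kept their calls without any single library, and in both the 3 ob/ob libraries lay below the lowest fasted one.

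Of the 30 genes of the fatty acid oxidation list, which includes peroxisomal and cytosolic members, 1 (Abcd2) rose and 1 (Acot1) fell. Over all genes 4.89% rose and 3.82% fell, near these counts, and the median of the list was -0.02. In the list 6 rose without ob/ob replicate 2, where 9.98% of all genes rose, and 0 without any other single library. Cpt1a, which brings fatty acids into mitochondria, stood at 595, 850 and 553 against 540, 226 and 559 CPM, with ob/ob replicates 1 and 3 near the fasted libraries (-0.59, adjusted p = 0.317). Of the 7 genes of the ketone list 0 were called by edgeR or DESeq2, with 1 at an unadjusted p under 0.05, 1 called by limma-voom and 1 by edgeR without ob/ob replicate 2. Ppara itself (-0.10, adjusted p = 0.859), Pdk4, which restrains pyruvate oxidation (0.09, adjusted p = 0.928), and Fgf21, a hormone of the fasted liver (0.44, adjusted p = 0.765), did not pass either, with ranges that overlapped between the groups. Nor did they without ob/ob replicate 2 (adjusted p = 0.568, 0.681 and 0.101). A p above the threshold does not show that these levels were equal.

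Endoplasmic reticulum folding genes were lower in the ob/ob livers. Hspa5, the chaperone BiP, stood at 1185, 1447 and 1159 CPM in the fasted and at 531, 537 and 560 CPM in the ob/ob libraries (log2 fold change -1.22, SE 0.19, adjusted p = 0.00723). Creld2, an ER stress-inducible secreted protein, stood at 70.4, 76.7 and 83.0 against 23.1, 22.0 and 18.8 CPM (log2 fold change -1.85, SE 0.15, adjusted p = 0.000808). The 3 ob/ob libraries differed little among themselves in both genes. Manf and Dnajb9, an ER-resident factor and a cochaperone of BiP, fell by 1.05 (SE 0.14) and 0.99 (SE 0.15), and all 4 genes kept their calls without any single library. Of 22 genes tested 10 fell and 0 rose, where 3.82% of all genes fell, with a median of -0.52. In 16 genes every ob/ob library lay below every fasted one, against 14.3% of all genes. The number that fell was again 10 without ob/ob replicate 2, but 5 without fasted replicate 2 or ob/ob replicate 1, 4 without fasted replicate 3 and 6 without ob/ob replicate 3. On library totals 8 fell.

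Some genes of glutathione use were higher in the ob/ob livers, and some P450 genes were lower. Gstm3, a glutathione transferase, stood at 7.80, 5.11 and 6.00 CPM in the fasted and at 159, 63.3 and 266 CPM in the ob/ob livers, a 25.8-fold difference (log2 fold change 4.69, SE 0.50, adjusted p = 0.00165). Gstm1 rose by 1.81 (SE 0.24) and the carboxylesterase Ces2g by 1.45 (SE 0.19), both without loss of the call in any fit that left out a library. Gclc, the catalytic subunit of glutathione synthesis, rose by 1.79 (adjusted p = 0.008) and no longer passed without fasted replicate 3 (1.76, adjusted p = 0.0686). The Gstm genes are close copies, so their reads may be split between them. Of 24 genes of the NRF2 list 13 rose and 0 fell (median 1.08), where 4.89% of all genes rose. The counts were 17 and 1 without ob/ob replicate 2, 5 and 0 without fasted replicate 2, and 3 and 0 without fasted replicate 3. Me1, of NADPH supply, is also in the fatty acid synthesis list, and Gstm3 is also a pericentral marker. Por, the reductase that feeds electrons to microsomal P450s, was lower, from 365, 618 and 454 to 125, 71.6 and 118 CPM (log2 fold change -2.19, SE 0.28, adjusted p = 0.00343), as did Cyp3a13 (-1.49, adjusted p = 0.00874). In the P450 list 6 of 21 genes fell and 2 (Cyp2b9 and Cyp2c55) rose, against 3.82% and 4.89% of all genes. The counts were 8 and 3 without ob/ob replicate 2, with 3 falling without fasted replicate 2, 2 without fasted replicate 3 or ob/ob replicate 1, and 0 rising without any 1 fasted library.

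Markers of the liver lobule's zones moved beside these lists. Of 13 periportal markers 4 fell and 0 rose (8 without ob/ob replicate 2, 2 without fasted replicate 2 or 3 or ob/ob replicate 3), and of 14 pericentral markers 5 (Gstm3, Lect2, Rnf43, Lgr5 and Slc1a4) rose and 1 fell (6 and 2 without ob/ob replicate 2, while 3 rose without fasted replicate 2 and 1 without fasted replicate 3). Over all genes, 3.82% fell and 4.89% rose. The 4 periportal genes, Asl, Arg1, Pck1 and Ass1, are enzymes of the urea cycle and of glucose production, and the pericentral gene that fell, Oat, is one of amino acid breakdown. The periportal list summed to 17300 to 25400 CPM in the fasted and 6450 to 8830 CPM in the ob/ob libraries, and the pericentral list to 11500 to 14600 and 7620 to 8620 CPM. The part of zonation in the amino acid result was not tested.

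The largest rises and falls held genes outside the lists. They were taken only among called genes whose groups did not overlap and that were also called without ob/ob replicate 2. Car3, a carbonic anhydrase of liver, muscle and fat, stood at 161, 69.2 and 106 CPM in the fasted and at 1755, 2498 and 2104 CPM in the ob/ob libraries (18.9-fold, log2 fold change 4.24, SE 0.35, adjusted p = 0.000924). Aqp8, a water and hydrogen peroxide channel of hepatocytes, stood at 11.7, 6.01 and 9.37 against 199, 139 and 328 CPM (log2 fold change 4.62, SE 0.38, adjusted p = 0.000924). Hcn3, a cation channel, stood at 0.351, 0.0752 and 0.822 CPM, which is 4, 1 and 10 counts, against 52.6, 29.5 and 30.5 CPM (log2 fold change 6.49, SE 0.49, adjusted p = 0.000808). By this rule all 3 separated the groups in every library and were called without ob/ob replicate 2. All 3 also kept their calls in every fit without 1 other library. Chrna4, a subunit of the nicotinic acetylcholine receptor, had 1, 2 and 0 counts in the fasted and 86, 324 and 382 counts in the ob/ob libraries (adjusted p = 0.00155). Its 3 fasted libraries lie at or under 3 counts, so no fold is given.

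Among the falls, Fkbp5, a cochaperone of the glucocorticoid receptor, stood at 129, 292 and 222 CPM in the fasted and at 26.8, 18.0 and 34.9 CPM in the ob/ob libraries (log2 fold change -3.01, SE 0.34, adjusted p = 0.00224). Zbtb16, a transcription factor that glucocorticoids induce in several tissues, stood at 101, 142 and 172 against 10.4, 20.0 and 9.76 CPM (log2 fold change -3.37, SE 0.32, adjusted p = 0.00126). Nnmt, which methylates nicotinamide, stood at 724, 884 and 700 against 146, 62.2 and 37.4 CPM (log2 fold change -3.23, SE 0.45, adjusted p = 0.00517). The fasted libraries lay several times above the ob/ob ones in all 3 genes, and the absence of overlap was required by the same rule. Mup17, a major urinary protein gene, fell by 5.37 (SE 0.68) and the pseudogene Gtpbp4-ps1 by 4.37 (SE 0.59). Both have close copies in the genome, as do Mup15 and Mup16, so the origin of their reads is uncertain. These 5 falls kept their calls without any single library. Cyp4a10, given above, was also among the 12 largest falls under this rule. Mup15 (-5.26), Mup16 (-3.52), Scara5 (-3.86), Cyp2c69 (-3.48), Mt1 (-3.42) and Cux2 (-3.34) completed them. Each of these lost its call without fasted replicate 2 and without fasted replicate 3, at adjusted p between 0.0696 and 0.141. Mup16 and Cyp2c69 also lost it without fasted replicate 1 (adjusted p = 0.0553 and 0.103), those 2, Scara5, Mt1 and Cux2 without ob/ob replicate 1 (adjusted p from 0.0709 to 0.115), and Scara5 and Cux2 without ob/ob replicate 3 (adjusted p = 0.0638 and 0.0821).

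Fh1, the mouse gene of fumarate hydratase, was not delivered to these livers, and its own level differed between the groups. It stood at 384, 513 and 294 CPM in the fasted and at 179, 134 and 150 CPM in the ob/ob livers, a 2.57-fold difference (log2 fold change -1.36, SE 0.23, adjusted p = 0.0102), with no overlap and no loss of the call without any single library. In the scaling of all 12 libraries Fh1 averaged 319 and 122 CPM in the fasted and ob/ob vector libraries and 813 and 679 CPM in those that received FH. Over this higher level, the libraries that received FH give the same contrast as -0.26, and the difference between the contrasts, tested over all 12 libraries and found in 8.43% of all genes, was -1.13 (adjusted p = 0.0267). That call was lost without fasted vector replicate 2, fasted FH replicate 2 or 3 or ob/ob FH replicate 2 or 3. Whether the Fh1 counts of the libraries that received FH hold delivered transcript, which would itself make their contrast smaller, was not tested. Of 24 genes of the tricarboxylic acid cycle Fh1 was the one that fell, while 5 rose (Cs, Idh1, Dlat, Suclg2 and Sdha), or 8 without ob/ob replicate 2, 2 without fasted replicate 1, ob/ob replicate 1 or ob/ob replicate 3, and 0 without fasted replicate 2 or 3. Of 34 oxidative phosphorylation genes 0 were called by edgeR, with or without ob/ob replicate 2, or by DESeq2. At an unadjusted p under 0.05 there were 3 (1 higher and 2 lower), and limma-voom called 1. Among 33 autophagy genes 1 (Atg101) rose and 2 (Bnip3 and Map1lc3b) fell, against 4.89% and 3.82% of all genes. In this list 0 rose without any library other than ob/ob replicate 2, and 0 fell without any 1 fasted library and 1 without ob/ob replicate 1. Ulk1, an initiating kinase of autophagy, stood at 65.1, 93.6 and 95.0 against 83.9, 89.4 and 87.3 CPM (0.04, adjusted p = 0.927), and Sqstm1, the cargo receptor p62, at 478, 515 and 401 against 373, 358 and 512 CPM (-0.17, adjusted p = 0.666). The ranges of both overlapped.

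Genes of fatty liver proper depended on replicate 2. Cd36, a fatty acid translocase, stood at 67.8, 63.1 and 45.2 CPM in the fasted livers and at 387, 51.3 and 587 CPM in ob/ob replicates 1 to 3. Replicates 1 and 3 were far above the fasted libraries and replicate 2 within their range, and the gene missed the threshold (2.54, adjusted p = 0.0519) unless that library was left out (3.05, adjusted p = 5.39e-06). Cidea, which fuses lipid droplets and is nearly silent in lean liver, had 0, 0 and 1 counts in the fasted and 566, 3 and 1159 in the ob/ob libraries and was removed by the filter on low counts. Cidec, its relative, stood at 113 and 128 CPM in ob/ob replicates 1 and 3, at 5.30 CPM in replicate 2 and at 26.2, 41.8 and 19.1 CPM in the fasted livers. Replicate 2 was thus below the lowest fasted library for this gene. Plin2 and Plin4, which coat lipid droplets, and Mogat1, which makes diacylglycerol, passed without it (0.94, 2.44 and 4.39; adjusted p = 0.0246, 3.52e-05 and 2.67e-05) and not with it (adjusted p = 0.457, 0.163 and 0.0708). Pparg, a nuclear receptor that drives lipid storage, passed at 7.27, 4.36 and 6.66 against 30.5, 9.60 and 36.0 CPM (2.06, adjusted p = 0.0247) and lost its call without fasted replicate 1 (2.20, adjusted p = 0.0715), fasted replicate 2 (1.86, adjusted p = 0.118), fasted replicate 3 (2.10, adjusted p = 0.118), ob/ob replicate 1 (1.91, adjusted p = 0.0774) or ob/ob replicate 3 (1.72, adjusted p = 0.0554).

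Of 28 genes known to rise in steatosis 9 rose and 2 (Gadd45b and Cyp4a14) fell, with a median of 1.23, while 22 of the 30 tested without ob/ob replicate 2 rose and 3 fell, with a median of 1.76. Over all genes, 4.89% rose and 3.82% fell with all 6 libraries, and 9.98% and 7.17% without ob/ob replicate 2. The 9 shrank to 5 without ob/ob replicate 3, 3 without ob/ob replicate 1, 2 without fasted replicate 1 and 0 without fasted replicate 2 or 3, and 1 fell without any 1 fasted library or ob/ob replicate 1. Of the 25 called without replicate 2, that library lay beyond the fasted range on the same side in 11, within it in 4 and beyond it on the other side in 10, at a median of 1.93% of the log2 difference. The lipid droplet list had 3 of 20 genes higher (Ces1g, Ces1d and Fitm1) and 1 lower (Plin5), or 11 of 21 higher and 1 lower without replicate 2. The number higher was 1 without fasted replicate 2 or 3, and the call of Plin5 was lost without any 1 fasted library or ob/ob replicate 1. By comparison, replicate 2 lay on the side of the other ob/ob libraries in 1851 of all 2510 genes called without it (73.7%), at a median of 56.4%.

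**Figure D4:**
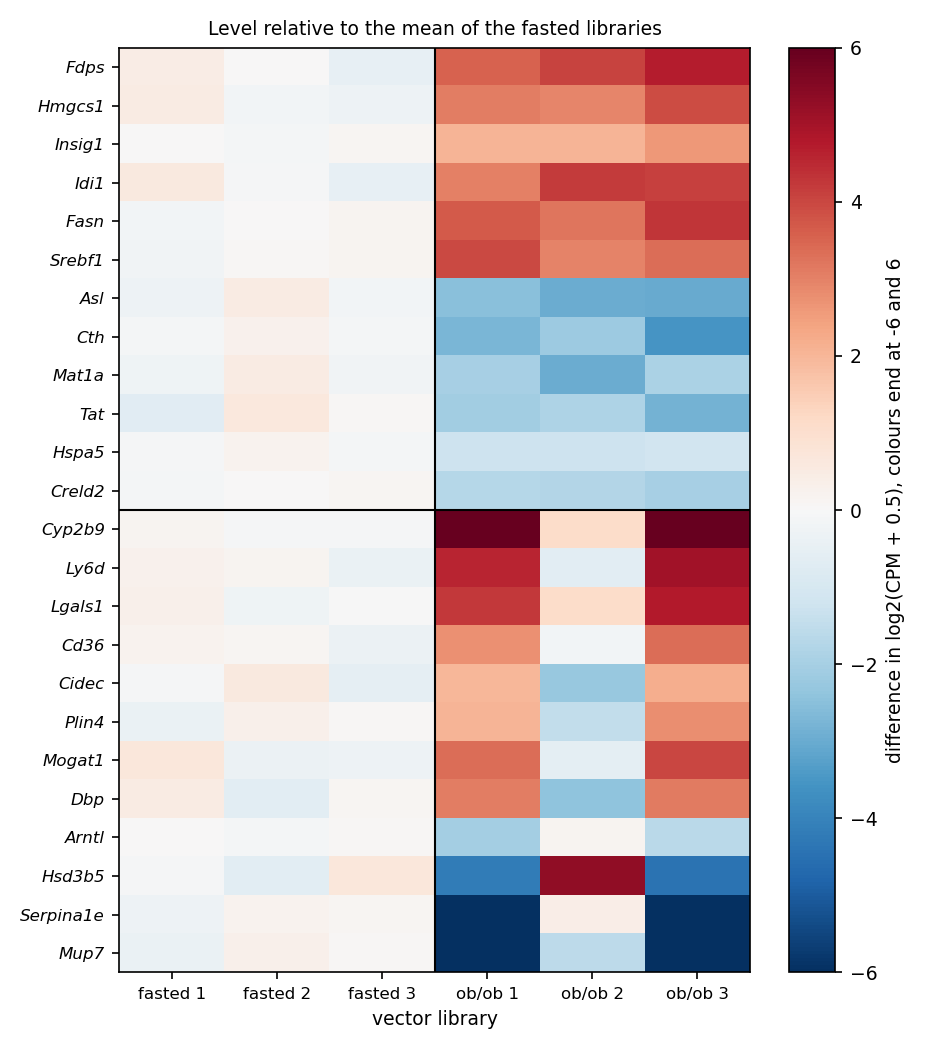
Colours give the level of 24 genes in each library as the difference in log2(CPM + 0.5) from the mean of the 3 fasted libraries, red above and blue below, with ends at -6 and 6. In the upper 12 genes (sterol, fatty acid, amino acid and folding genes) the 3 ob/ob libraries share a colour, and in the lower 12 ob/ob replicate 2 is paler than replicates 1 and 3 or of the opposite colour, as for Hsd3b5 at 421 CPM.

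Replicate 2 also stood apart in sex-biased and clock genes. Male-biased liver genes follow the pulsed growth hormone of males, and female-biased ones its steady form. Mup7, a male-biased urinary protein gene, stood at 1462, 2407 and 2058 CPM in the fasted livers, at 0.0732 and 0.0664 CPM in ob/ob replicates 1 and 3 and at 660 CPM in replicate 2. Serpina1e, a male-biased antitrypsin gene, stood at 4195, 5846 and 5492 CPM, at 11.1 and 9.69 CPM and at 6749 CPM in the same order. Neither passed with replicate 2 (adjusted p = 0.372 and 0.729), and both were called lower without it (adjusted p = 3.14e-08 and 9.4e-08). Both genes have close copies, which makes each level uncertain. Hsd3b5, a male-biased steroid dehydrogenase, was at 9.55, 6.46 and 16.8 CPM in the fasted livers and reversed its direction, from 3.68, adjusted p = 0.287 with replicate 2 to a call as lower (adjusted p = 2.67e-05) without it. Mup20, a urinary pheromone protein gene, stood at 12055, 14543 and 12970 against 3696, 7438 and 1454 CPM and was called only without replicate 2 (-2.36, adjusted p = 0.00209, against -1.65, adjusted p = 0.08).

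Of 27 growth hormone and male-biased genes 2 (Ghr and Stat5a) rose and 1 (Cyp2d9) fell, while 3 of the 28 tested without replicate 2 rose and 16 fell, the median going from -0.08 to -0.98. The rises were 0 without any 1 fasted library or ob/ob replicate 1, and the fall was lost without fasted replicate 2 or 3 or ob/ob replicate 1 or 3. Y-linked genes summed to 365 CPM in replicate 2 and to 345 and 276 CPM in replicates 1 and 3. Ghr, the growth hormone receptor, was higher in all 3 ob/ob libraries, at 405, 330 and 381 against 614, 715 and 609 CPM (0.80, adjusted p = 0.0271), a call lost without any single library other than ob/ob replicate 2, at adjusted p from 0.051 without fasted replicate 1 to 0.118 without fasted replicate 3. Igf1, its main target in liver, was lower only without replicate 2 (-0.64, adjusted p = 0.0445, against -0.43, adjusted p = 0.241). Among 18 female-biased genes 5 (Ntrk2, Cyp2b9, Slc22a27, Abcd2 and Vldlr) rose and 3 (Fmo2, Cyp2c69 and Cux2) fell, or 11 and 6 of the 23 tested without replicate 2, and 0 and 1 without fasted replicate 2 or 3. In 14 of those 17 replicate 2 lay beyond the fasted range on the side of replicates 1 and 3, at a median of 20.3% of the log2 difference, against 6 of the 19 called male-biased and growth hormone genes. The rises were 1 without fasted replicate 1 and 3 without ob/ob replicate 1 or 3. Cyp2b9, a female-biased P450, stood at 0.263, 0.150 and 0.164 CPM in the fasted livers and at 244, 0.993 and 422 CPM in the ob/ob livers. Its fasted libraries held 3, 2 and 2 counts, so no fold is given. It was called higher (adjusted p = 0.0173) although replicate 2 was far nearer to the fasted level than to replicates 1 and 3, and the call was lost without any 1 fasted library (adjusted p = 0.0762, 0.0988 and 0.112). Serpina7 (6.45) and H2-Q1 (4.54) were among the 12 largest rises under the rule for naming genes, also with replicate 2 the lowest ob/ob library. So were Slc22a27 and Gsta1, at 763, 18 and 1188 and 198, 49 and 389 counts in ob/ob replicates 1 to 3 against 8, 2 and 3 and 6, 0 and 2 counts in the fasted libraries. The calls of these 4 genes were lost without fasted replicate 2 or 3 (adjusted p from 0.0523 to 0.12), and that of Slc22a27 also without fasted replicate 1 (adjusted p = 0.0748). Cyp2a22 and Rgs16 also stood at low levels in replicate 2, with 1.46 and 2.58 CPM against 79.1 and 169 CPM and 94.4 and 228 CPM in replicates 1 and 3, and were called only without it (adjusted p = 1.83e-05 and 0.000366).

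Of 18 clock genes 0 were called by edgeR with all 6 libraries, with 6 at an unadjusted p under 0.05, 1 called by DESeq2 and 3 by limma-voom, and 4 rose and 4 fell of the 19 tested without replicate 2. In none of these 8 did replicate 2 lie beyond the fasted range on the side of replicates 1 and 3. Dbp, an output gene of the clock, stood at 7.19, 3.01 and 5.43 CPM in the fasted and 45.0, 0.530 and 46.6 CPM in the ob/ob libraries, and Arntl, which encodes its activator BMAL1, at 24.6, 22.8 and 25.9 against 5.49, 27.5 and 7.57 CPM. Without replicate 2 they were called higher and lower (3.15, adjusted p = 9.35e-06 and -1.90, adjusted p = 6.85e-05), and with it neither was (2.57, adjusted p = 0.156 and -0.85, adjusted p = 0.333). Per1 did not pass either way (adjusted p = 0.468 and 0.599). Times of collection are not given for any library, and their part in these values was not tested. Adiponectin (Adipoq), which defines fat cells, had 8, 0 and 0 counts in the fasted and 0, 46 and 0 in the ob/ob libraries, and leptin had 0 to 2 counts in each. The 3 adipocyte markers tested summed to 32.8 to 39.3 CPM in the fasted and 45.2 to 50.3 CPM in the ob/ob libraries. The part of fat tissue in the values of replicate 2 was not tested.

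Few markers of inflammation or of other liver cell types passed the test. Of 16 Kupffer cell and macrophage markers 1 (Spp1) rose and 0 fell, while 5 of the 17 tested without ob/ob replicate 2 rose and 1 fell, and 0 rose without any other single library. Of 14 lymphocyte markers 0 were called by edgeR with or without that library or by limma-voom, with 2 at an unadjusted p under 0.05 and 1 called by DESeq2, and 1 was called without ob/ob replicate 1. Of 28 interferon-stimulated genes 1 (Gbp2) rose, a call kept only without ob/ob replicate 2, where 2 fell, while 1 fell without ob/ob replicate 3. In the acute phase list 0 of 27 genes rose and 4 fell (Il6ra, Mt1, Itih3 and Lbp, or 1 without fasted replicate 2 or 3 or ob/ob replicate 1), and 4 rose without ob/ob replicate 2 and 1 without ob/ob replicate 3. Those that fell include Il6ra, the interleukin-6 receptor, at 91.1, 158 and 155 against 40.1, 48.7 and 40.5 CPM (log2 fold change -1.64, SE 0.23, adjusted p = 0.00461). Saa1, an acute phase apolipoprotein, did not pass (-0.60, adjusted p = 0.55), and Lcn2, a secreted iron-binding protein, passed only without replicate 2 (2.02, adjusted p = 0.00214). Of the 13 sinusoidal endothelial markers 0 passed edgeR's test with 6 libraries, with 9 at an unadjusted p under 0.05, 4 called lower by DESeq2 and 6 by limma-voom, and 2 fell without fasted replicate 1, ob/ob replicate 2 or ob/ob replicate 3, and all 13 had a negative log2 difference (median -0.47). In 9 of them the groups did not overlap, against 14.3% of all genes.

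Some collagen genes were higher. Col1a1, the main fibrillar collagen chain, stood at 2.37, 1.73 and 3.21 CPM in the fasted and 12.7, 9.73 and 8.76 CPM in the ob/ob libraries (log2 fold change 2.10, SE 0.29, adjusted p = 0.00461), a call kept without any single library. Col3a1 and Col1a2 rose by 2.19 and 1.06, and both calls were lost without fasted replicate 3 (adjusted p = 0.0507 and 0.0686). They were the 3 of 14 stellate cell and matrix markers that rose, where 4.89% of all genes rose, while 0 fell. Another collagen gene of the list was tested and not called. The median log2 difference of the list was 0.13, and its sum was 444 to 512 CPM in the fasted and 456 to 493 CPM in the ob/ob libraries. Of 26 cell cycle genes 4 (Ccnd1, Mcm6, Ccnb2 and Mcm5) rose and 0 fell, where 4.89% of all genes rose, with a median of 1.00. Without ob/ob replicate 2, 9 of 27 rose and 1 fell, and the number that rose was 2 without ob/ob replicate 3, 1 without ob/ob replicate 1 and 0 without fasted replicate 3. Mki67, which marks dividing cells, stood at 0.789, 2.78 and 1.40 against 4.32, 4.63 and 6.44 CPM and missed the threshold (1.61, adjusted p = 0.0516) unless ob/ob replicate 2 (1.68, adjusted p = 0.021) or fasted replicate 2 (2.21, adjusted p = 0.0431) was left out.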

How the data were processed

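Total liver RNA was extracted with TRIzol and sequenced from stranded mRNA libraries, per the labels' protocols. The values used are the raw counts per gene that the authors deposited for all 12 libraries in 1 table. The aligner was STAR 2.7.11a and the build GRCm39, per the submitters' processing notes. How reads were counted, on which gene annotation and with which strand setting was not given in the sources used here, so reads of overlapping and antisense genes may be mixed.

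Titles gave the groups. Genes of the 6 vector libraries with enough counts were tested with edgeR 4.0.16 (R 4.3.3). Enough (filterByExpr) was the CPM equal to 10 counts at median depth in at least 3 libraries, the size of a group, and 15 counts in all. The test used TMM scaling, a quasi-likelihood fit with 4 residual degrees of freedom and Benjamini-Hochberg adjustment over all 14287 genes. A call is an adjusted p under 0.05. The standard error (SE) is the log2 fold change divided by the root of F. Alternatives were all 12 libraries in 1 model, library totals, DESeq2 1.42.0 and its size factors, limma 3.58.1 (voom with quality weights), no filter, a mean of at least 5 CPM, the replicate number as a block, and each library left out. The script was tested on simulated data. Depth was 12231828 to 14884323 counts, at which 3 counts are at most 0.263 CPM. Genes named are the 12 largest rises and falls among called genes of at least 5 CPM on average, those with replicate 2 farthest apart, a panel of 49 and up to 5 called members of each of 40 lists. Aass, Cyp2c55, Cyp51, Fdft1, Gclc, Hgd, Hmgcs1, Mat1a, Me1, Msmo1, Nsdhl, Otc, Sc5d, Sdha, Slc1a4, Sqle, Tdo2 and Vldlr, members of the lists outside that rule, were named after their values were seen. Some genes of the panel and lists are not reported here by name. Panel and lists were chosen with earlier results of these data known. Promoters are RefSeq's on GRCm38.p6, matched by symbol for 53 of 72 genes named by the rule or panel.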

Additional observations from a re-analysis of the deposited data

Results flagged for a closer look

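The same contrast, ob/ob minus fasted livers, was also measured in the 6 libraries that received FH. The difference between the contrasts was tested in 1 edgeR model over all 12 libraries, where 1283 of 15228 genes (8.43%) differed at an adjusted p under 0.05. Among the 49 panel genes 7 did, and 6 of them follow. The number was 3 to 12 without any 1 library other than ob/ob vector replicate 2 and 13 without that one. In each, the value is the log2 contrast in the vector libraries minus that in the FH libraries. The plan of this test records that sex markers differ in the ob/ob FH libraries. Their part in these differences was not tested, so FH is not the only thing that may set the library sets apart.

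Acly differed by -1.24 (1.95 in vector and 3.19 in FH libraries, adjusted p = 0.00641). Pdk4 differed by -2.07 (0.06 and 2.13, adjusted p = 0.0439). Mup20 differed by 3.45 (-1.67 and -5.12, adjusted p = 0.00593). It averaged 10610 and 3327 CPM in the fasted and ob/ob vector libraries and 4825 and 138 CPM in those that received FH. Fh1, the mouse form of the gene delivered, differed by -1.13 (-1.39 and -0.26, adjusted p = 0.0267). Whether its counts in the FH libraries hold delivered transcript was not tested. Transcript added to both groups would by itself make the log2 contrast smaller, so this difference is not read as a response of the mouse gene. Arntl differed by -2.85 (-0.87 and 1.98, adjusted p = 0.0334). Saa1 differed by -3.10 (-0.63 and 2.47, adjusted p = 0.0159). Without ob/ob vector replicate 2 each of the 6 kept its call, with Arntl at -3.91 (adjusted p = 0.000580) and Mup20 at 2.74 (adjusted p = 0.00183). The calls of Acly, Mup20 and Saa1 held without any of the 12 libraries, that of Fh1 in 7 of the 12 such fits, and those of Pdk4 and Arntl in 4 each. The call of Pdk4 was lost without fasted vector replicate 1 or 3, fasted FH replicate 1 or 2, any 1 ob/ob FH library or ob/ob vector replicate 1, and that of Arntl without any 1 fasted vector library, fasted FH replicate 2 or 3, ob/ob FH replicate 1 or 2 or ob/ob vector replicate 1. The call of Fh1 was lost without fasted vector replicate 2, fasted FH replicate 2 or 3 or ob/ob FH replicate 2 or 3. The fitted sign of the contrast thus differed between the library sets for Arntl and Saa1. It was positive in both for Acly and Pdk4 and negative in both for Mup20 and Fh1. In the fit of the 6 vector libraries, Arntl, Saa1 and Pdk4 did not pass edgeR's test (adjusted p = 0.333, 0.550 and 0.928), nor did Mup20. The signs of these vector contrasts are therefore uncertain.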

How the results depend on the processing

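The number of genes differing was 1244 with all 6 libraries. It was 2671 (1426 higher, 1245 lower, 1177 at least 2-fold) with all 12 libraries in 1 model, 2426 (1277 and 1149) with limma-voom and quality weights and 2361 (1387 and 974, 1366 at least 2-fold) with no filter on low counts. It was 1801 with DESeq2 (951 higher, 850 lower) and 1661 on library totals (1336 and 325). RLE size factors gave 1243 and a mean of at least 5 CPM 1112. Leaving out 1 library gave 223 to 2510 genes, with 105 to 1460 higher, 118 to 1050 lower and 216 to 1434 at least 2-fold. The causes were not tested. The number of genes whose contrast differed between vector and FH libraries was 1283, but 828 among genes averaging 5 CPM or more, and 582 to 1650 when 1 library was left out.

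With the replicate number as a replicate block, 786 genes differed (441 higher, 345 lower, 628 at least 2-fold). The deviations of same-numbered libraries correlated at 0.032, -0.085 and -0.172, so the numbers were not taken to pair the libraries, and not every library correlated best with its own number.

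Of 163 tested genes named in the text, 132 were called with all 6 libraries. Direction and status, called or not called, held for 99 and 92 of the 163 without fasted replicates 2 and 3. They held for 119 to 142 without any other single library. Calls lost numbered 62 and 69 without fasted replicates 2 and 3, and 1 to 44 without any other single library. Genes that reversed were Hsd3b5, fitted at -5.79 with limma-voom, -2.35 with the replicate block and -7.94 without ob/ob replicate 2 (against 1 and 0 counts), and 7 genes that did not pass. On library totals Otc stood at 0.082, Ppara at 0.082 and Sqstm1 at 0.020, with limma-voom Ppara at 0.029 and Ulk1 at -0.021, and with the replicate block Fgf21 at -0.097. Leaving out 1 library gave -0.54 to 0.96 for Fgf21, -7.94 to 4.27 for Hsd3b5, -0.27 to 0.060 for Otc, -0.34 to 0.72 for Pdk4, -0.32 to 0.16 for Ppara, -1.04 to 0.26 for Saa1 and -0.12 to 0.11 for Ulk1. Of the called genes, Ass1, Creb3l3, Cyp4f15, Gpat4, Lbp and Phkg2 no longer passed on library totals, Ccnb2, Cux2, Cyp2b9, Lepr and Slc22a27 with limma-voom, Atg101 and Cfd with DESeq2, Ass1 and Cyp2c70 among genes averaging 5 CPM or more, Atg101, Mcm5 and Sdha with RLE size factors and Atg101 with no filter. The replicate block ended 27 calls. At these depths, 3 counts are at most 0.263 CPM in any of the 6 libraries.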

Other observations

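Genes of fatty acid uptake and binding moved in both directions. Of 19 tested 7 were higher and 2 lower in ob/ob livers, against 4.89% and 3.82% of all genes. Slc27a1, a fatty acid transport protein, stood at 24.0, 25.2 and 21.2 CPM in fasted replicates 1 to 3 and at 7.18, 8.34 and 8.56 CPM in ob/ob replicates 1 to 3 (log2 fold change -1.55, SE 0.16, adjusted p = 0.00155). Acsl3, an acyl-CoA synthetase of lipid droplets and endoplasmic reticulum, stood at 13.3, 6.01 and 7.07 against 37.4, 36.1 and 50.1 CPM (log2 fold change 2.23, SE 0.29, adjusted p = 0.00391). The groups did not overlap in either gene, and both calls held without any single library. The number higher was 10 without ob/ob replicate 2, 4 without fasted replicate 1, 3 without ob/ob replicate 1 or 3, 2 without fasted replicate 2 and 1 without fasted replicate 3, and the number lower was 1 without any library other than ob/ob replicate 2. Ces1g, a carboxylesterase that hydrolyses neutral lipid, rose from 64.8, 67.8 and 57 to 202, 205 and 268 CPM (log2 fold change 1.83, SE 0.18, adjusted p = 0.00126). It also kept its call in each of those fits.

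Few genes of lipid export and bile acid handling passed the test. In the lipoprotein list 3 of 17 genes fell (Angptl4, Apoc2 and Creb3l3), or 1 without any 1 fasted library or ob/ob replicate 3, and 2 rose without ob/ob replicate 2 and 1 without ob/ob replicate 3. In the triglyceride synthesis list 1 of 13 (Gpat4) fell, or 3 rose and 2 fell without ob/ob replicate 2. The number that fell was 2 without fasted replicate 1 and 0 without fasted replicate 2 or 3 or ob/ob replicate 1 or 3. Of 21 bile acid genes 1 (Cyp2c70) rose and 2 (Slco1a4 and Baat) fell, or 7 fell without ob/ob replicate 2 and 1 without ob/ob replicate 1 or any 1 fasted library, and the rise was lost without any 1 fasted library. Slco1a4, an organic anion transporter whose call held without any single library, stood at 277, 387 and 268 against 42.5, 51.3 and 72.2 CPM (log2 fold change -2.49, SE 0.25, adjusted p = 0.00133). Cyp7a1, the rate-limiting enzyme of bile acid synthesis, did not pass with or without ob/ob replicate 2 (adjusted p = 0.222 and 0.253), at 92.9, 324 and 125 against 113, 74.1 and 106 CPM.

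Of 38 cytosolic ribosomal protein genes 0 were called by edgeR with 6 libraries or by DESeq2, with 4 at an unadjusted p under 0.05 and 3 called by limma-voom, while 10 fell without ob/ob replicate 2. In the lysosome list 2 of 31 genes (Ctsl and Ctsf) fell, or 1 without fasted replicate 1 and 0 without fasted replicate 2 or 3 or ob/ob replicate 1, and 2 rose without ob/ob replicate 2. Of 10 hepatocyte markers 1 (Ttr) rose and 2 (Cps1 and Hnf4a) fell, and of 6 cholangiocyte markers 1 (Spp1) rose and of 3 adipocyte markers 1 (Cfd), each of these counts being 0 without fasted replicate 2 or 3 or ob/ob replicate 1. Without ob/ob replicate 2, 3 hepatocyte markers, 1 cholangiocyte marker and 1 adipocyte marker fell and 2 adipocyte markers rose.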
